A study of Homo sapiens with 48 samples.

Results

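Replication-dependent histone mRNAs are the only metazoan mRNAs known to end in a conserved stem-loop in place of a poly(A) tail. NPAT and CASP8AP2 (also called FLASH) gather at the histone loci, where NPAT is a substrate of cyclin E and CDK2 and drives histone gene transcription in S phase. The stem-loop binding protein SLBP marks the end of the pre-mRNA, the U7 small nuclear ribonucleoprotein with its own Sm-like proteins LSM10 and LSM11 pairs with the sequence behind it, and ZNF473 (ZFP100) bridges both by binding LSM11. CSTF2 (CstF-64) and the scaffold SYMPK (symplekin) belong to the cleavage complex that also serves ordinary polyadenylation, and ERI1 is a 3′ exonuclease that trims the histone mRNA end during decay.

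These 9 genes were described together: SLBP, NPAT, CASP8AP2, LSM10, LSM11, ERI1, ZNF473, CSTF2 and SYMPK, chosen by symbol among the 33892 rows of a matrix of raw gene counts. All 9 have a row, and 61 rows of replication-dependent histone genes were set beside them. RNA was measured in 8 established human cancer cell lines: RKO and DLD-1 from colon cancer, H-23 and H-1299 from lung cancer, PANC-1 and CAPAN-2 from pancreatic cancer, and H-929 and RPMI from multiple myeloma, a plasma cell cancer. Each line was given carfilzomib, an irreversible proteasome inhibitor, for 24 h at its own IC50 for proteasome activity, or the solvent DMSO. Each of the 16 groups has 3 libraries that the labels call biological replicates, all of cells in plain 2D culture. The concentrations differ between lines and were not used here, so a difference between lines is also a difference in dose.

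Library totals ran from 9.12 M to 64.4 M counts, and the 7 members with 1 row each held between 61 and 10635 counts per library. The 3 carfilzomib libraries of H-929 were the shallowest, at 9.12 M to 9.93 M against 14.6 M to 18.9 M for its DMSO libraries. Thinned to the lowest total of the series, the 4 members called in H-929 were still called there, at -0.68 for SLBP, -0.27 for NPAT, -0.81 for LSM11 and -0.68 for CSTF2 on the log2 scale. The plasma cell factor IRF4 stood at 2104 CPM (counts scaled to a common library total) in untreated H-929 and 551 in RPMI, and at 0.293 or less in the other lines. The epithelial genes CDH1 and KRT19 were at 0.0694 CPM or less in RKO and H-1299, and the lung surfactant gene SFTPB reached only 1.60 CPM in H-23 and 0.286 in H-1299, while the epithelial keratin genes KRT18 and KRT8 were present in both lung lines (727 and 287 CPM in H-1299, 2160 and 1681 in H-23) and lower in RKO (73.98 and 54.4 CPM). RKO also held 20.9 CPM of the colon factor CDX2 and 7.73 of EPCAM. The other colon genes looked at were low in RKO, with VIL1 at 0.722 CPM, CDH17 at 0.0277, and GPA33 and KRT20 at 0. The markers of RKO were thus mixed. RPMI held 118 CPM of the epithelial gene EPCAM and H-929 0.0196. CASP8AP2 and ERI1 each have a second row with the same Ensembl identifier, which splits their reads in an unknown way, and both are uncertain throughout. In bulk RNA, fewer cells in S phase and less mRNA per cell cannot be told apart.

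Promoter windows from RefSeq (GRCh38.p14, 250 bases before to 50 after the start) were matched for 7 of the 9 genes, all but ERI1 and ZNF473. Those of the stem-loop binding protein, the 2 U7 proteins, the locus factor NPAT and the cleavage factor CSTF2 are shown because their transcripts moved together or apart in the comparisons that follow. Each is given up to 10 bases after the start. Capitals mark matches on either strand to CCAAT, to the E2F forms TTTGGCGC, TTTCCCGC, TTTGCCGC and TTTCGCGC, and to the cell cycle element CHR, TTTGAA.
SLBP, chr4:1712310-1712569, minus strand: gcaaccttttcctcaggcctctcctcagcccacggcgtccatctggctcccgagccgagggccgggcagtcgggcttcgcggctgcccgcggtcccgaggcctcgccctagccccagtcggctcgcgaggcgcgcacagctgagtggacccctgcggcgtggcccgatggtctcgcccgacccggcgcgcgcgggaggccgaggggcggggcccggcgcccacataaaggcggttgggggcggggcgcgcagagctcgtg
LSM11, chr5:157743462-157743721, plus strand: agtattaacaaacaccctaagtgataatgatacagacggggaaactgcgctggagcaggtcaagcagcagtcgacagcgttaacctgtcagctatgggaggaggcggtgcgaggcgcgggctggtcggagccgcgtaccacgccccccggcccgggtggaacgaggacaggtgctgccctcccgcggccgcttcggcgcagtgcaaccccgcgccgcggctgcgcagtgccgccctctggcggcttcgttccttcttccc
CSTF2, chrX:100820141-100820400, plus strand: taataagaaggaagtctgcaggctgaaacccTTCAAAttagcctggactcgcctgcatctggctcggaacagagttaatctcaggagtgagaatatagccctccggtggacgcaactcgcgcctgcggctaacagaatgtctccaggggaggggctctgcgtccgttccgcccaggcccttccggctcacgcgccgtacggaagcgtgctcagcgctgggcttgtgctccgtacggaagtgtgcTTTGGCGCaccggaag
LSM10, chr1:36397899-36398158, minus strand: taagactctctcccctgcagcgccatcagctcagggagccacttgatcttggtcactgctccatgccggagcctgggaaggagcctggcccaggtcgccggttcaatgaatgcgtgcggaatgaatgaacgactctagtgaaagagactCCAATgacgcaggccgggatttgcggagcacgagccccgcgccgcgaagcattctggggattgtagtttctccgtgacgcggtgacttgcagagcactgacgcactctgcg
NPAT, chr11:108222629-108222888, minus strand: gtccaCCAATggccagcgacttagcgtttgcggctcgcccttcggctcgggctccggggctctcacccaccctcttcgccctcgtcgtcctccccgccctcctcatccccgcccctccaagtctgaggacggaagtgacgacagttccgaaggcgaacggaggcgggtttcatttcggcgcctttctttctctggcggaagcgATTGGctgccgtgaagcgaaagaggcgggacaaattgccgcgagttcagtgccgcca
NPAT held CCAAT on both strands, at -245 and -47 from the start, and LSM10 held it at -101. CSTF2 held TTTGGCGC at -6 and the reverse complement of the CHR letters at -219. SLBP held none of these letters, and LSM11 held the reverse complement of the CHR letters at position 33 after the start, beyond the part shown. CASP8AP2, not shown, held TTTGGCGC at -149 and the reverse complement of CCAAT at -65 and -15. Among 35116 RefSeq promoter windows of 300 bases, 34.6% held CCAAT, 15.2% the CHR letters and 3.31% an E2F form. No member window held a heat shock element pair (GAANNTTC or TTCNNGAA, in 13.5% of windows) or the antioxidant response letters TGACNNNGC (in 13.3%). A match describes letters in a window, and nothing was drawn from it about a factor. The NPAT window shares 72 bases with one of the neighbouring gene ATM, which is read in the opposite direction.

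In untreated cells SLBP was the most abundant of the 7 single-row members per length of exon sequence. Its level averaged 62.3 CPM per kilobase over the 8 lines (SD 14.8), against 27.1 for CSTF2, 11.3 for NPAT, 9.86 for LSM10, 8.02 for SYMPK, 3.99 for ZNF473 and 2.92 for LSM11. ZNF473 varied most between lines, 5.90-fold from H-929 to H-23, and SLBP least, 2.05-fold from PANC-1 to H-1299. The following DMSO levels are CPM over totals scaled across all 48 libraries, as means of 3 libraries. SLBP stood at 168 CPM ± 15.6 (SD) in H-1299, then 146 in H-929, 143 in DLD-1, 140 in RPMI and 129 in CAPAN-2, each overlapping the next, and then without overlap at 114 in RKO, 87.1 in H-23 and 82.2 in PANC-1. NPAT was highest in RPMI (132 CPM) and CAPAN-2 (131 CPM), which overlapped, and lowest in H-23 (55.5 CPM) and RKO (54.2 CPM), which also overlapped. LSM10 led in H-929 at 28.6 CPM ± 1.81 (SD) and was lowest in DLD-1 at 8.30 CPM, where the last 4 lines in its order overlapped one another in turn. LSM11 had another order: H-1299 came first at 32.2 CPM ± 2.97 (SD), apart from all others, and PANC-1 last at 12.2 CPM, overlapping RKO. ZNF473 was lowest in H-929 at 7.39 CPM ± 1.25 (SD), apart from the next line PANC-1 at 21.3 CPM. CSTF2 was highest in H-23 at 83.7 CPM and lowest in H-929 at 39.9 CPM, which overlapped RKO. SYMPK was highest in H-929 at 164 CPM ± 11.7 (SD) and lowest in PANC-1 at 39.1 CPM ± 0.443 (SD), each apart from its neighbour.

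After carfilzomib the factors did not move as 1 block. On average over the 8 lines SLBP, LSM11, CSTF2 and NPAT were lower and LSM10, ZNF473 and SYMPK higher, by a joint edgeR quasi-likelihood fit of all 48 libraries with Benjamini-Hochberg adjustment over 22309 genes at a threshold of 0.05. Thus 4 of 9 members were called lower, beside 23.9% of all genes, and 3 were called higher, beside 19.8%. The median of the members' average log2 fold changes was 0.06, and that of all genes 0.02. The effect differed between lines for 8 of 9 members, beside 67.7% of all genes, with ERI1 the exception. The largest averages were those of the 2 U7 proteins and SLBP, at 0.37 ± 0.047 (SE) for LSM10, -0.36 ± 0.041 for LSM11 and -0.34 ± 0.021 for SLBP on the log2 scale. The error of these averages is the spread between libraries. With cell lines as units (limma on the 8 changes) 0 members were called lower and 0 higher.

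Changes were small in single lines. Fitted line by line on 6 libraries each, the 9 members gave 69 tested values of 72, of which 18 were called lower and 14 higher, and only 4 of these calls reached 2-fold. In RKO 2 members were called lower and 0 higher, beside 5.28% and 3.62% of all genes tested there, and in DLD-1 the members gave 3 and 0 beside 12.1% and 10.9%. H-23 gave 3 lower and 0 higher beside 16.2% and 17.7%. H-1299 gave 0 lower and 4 higher beside 31.3% and 29.8%, and PANC-1 gave 1 and 3 beside 18.2% and 20.5%. CAPAN-2 gave 2 lower and 3 higher beside 26.7% and 25.7%. The myeloma lines differed from each other in the split, with 4 lower and 0 higher in H-929 beside 26.2% and 26.4%, and 3 lower and 4 higher in RPMI beside 32.2% and 31.3%. With 9 members these counts describe the genes and are no test of the group. Scaling matters in H-929, where the joint fit put the change of all genes lower than the fit of the line alone by a median of -0.16 on the log2 scale.

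**Figure D1:**
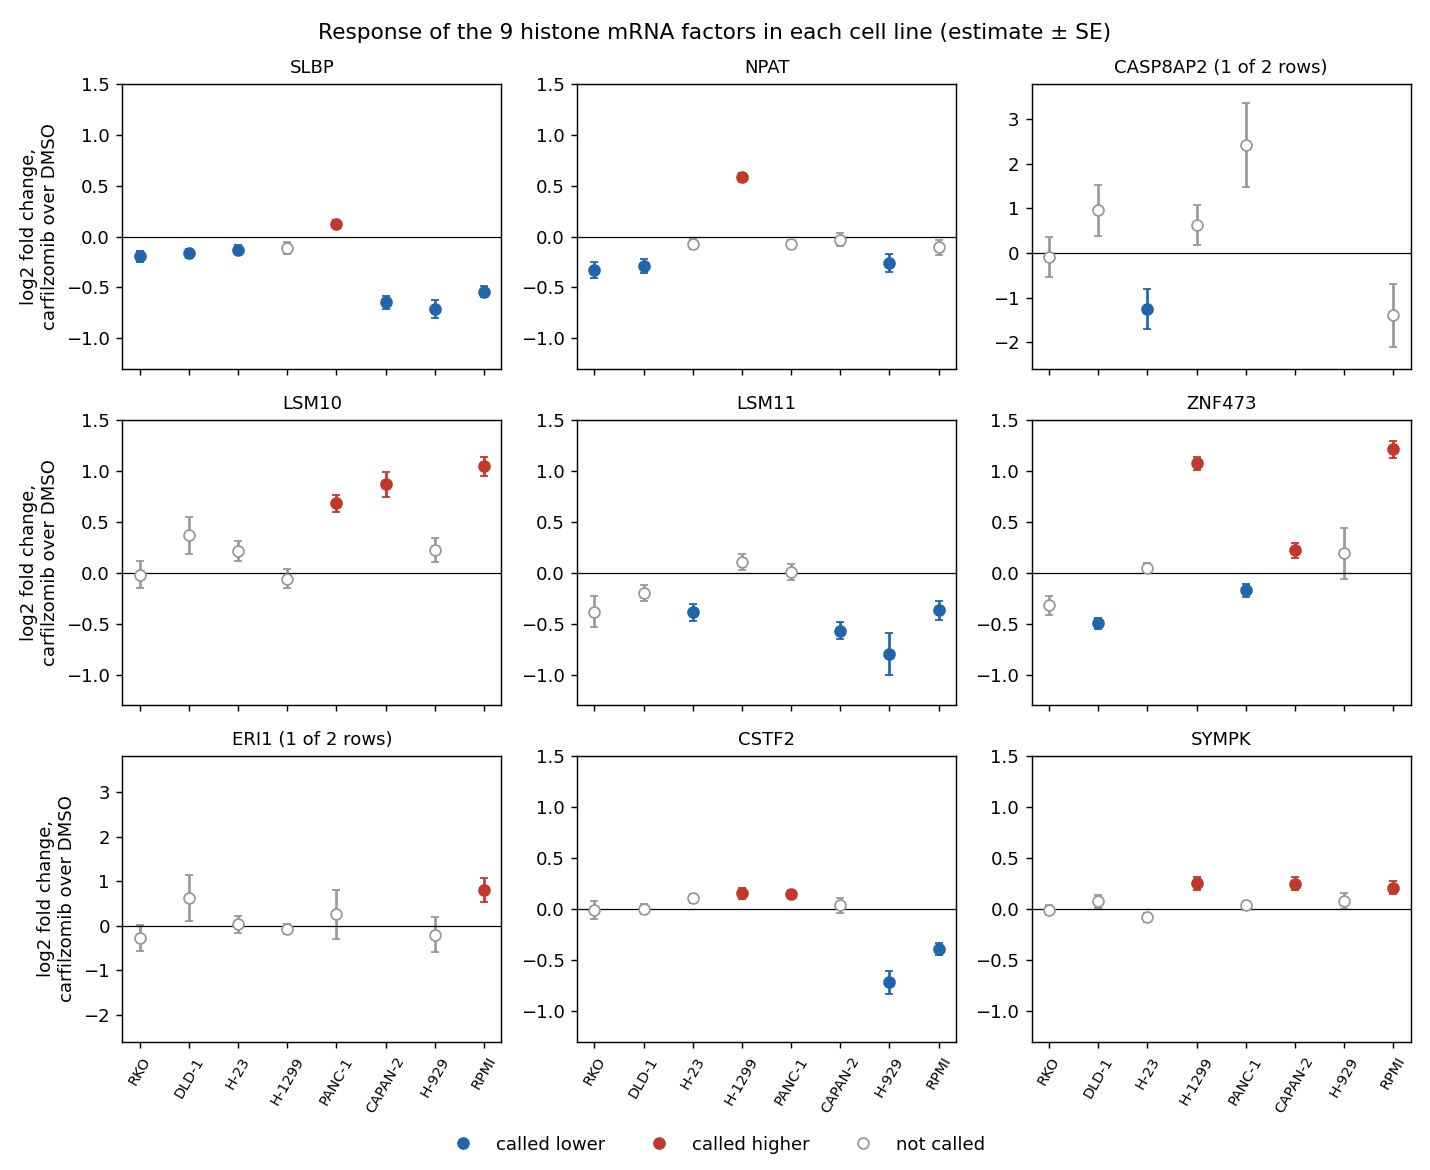
Log2 fold change of carfilzomib over DMSO (y axis, estimate with SE as bars) for each of the 9 factors in each of the 8 cell lines (x axis), from the fits of 6 libraries per line. Filled blue and red points were called lower and higher, open points were not called, and lines without a point were not tested. SLBP is below 0 in every line but PANC-1. LSM10 and LSM11 lie on opposite sides of 0 in every line but RKO and PANC-1, and in H-1299 LSM10 (-0.06) is below 0 and LSM11 (0.10) above. CASP8AP2 and ERI1 have their own wider y axis.

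SLBP (ENSG00000163950, chromosome 4, 1692800 to 1712555 in GRCh38), which binds the stem-loop and stays with the mRNA into translation, had falls called in 6 lines and a rise in 1. In H-929 the DMSO libraries held 130, 130 and 147 CPM, scaled within the line, and the carfilzomib libraries 86.9, 78.4 and 83.3 CPM. Every treated library lay below every control, with a log2 fold change of -0.71 ± 0.087 (SE, adjusted p = 1.08e-05, edgeR). CAPAN-2 fell to a like extent, from 109 to 129 CPM in DMSO to 74.1 to 79.1 CPM in carfilzomib (-0.65 ± 0.066, adjusted p = 1.26e-06), and RPMI by -0.54 ± 0.052 (adjusted p = 7.16e-07). The falls in RKO (-0.19), DLD-1 (-0.16) and H-23 (-0.13) were small, with adjusted p of 0.0413, 0.0216 and 0.0300. In PANC-1 the direction was the opposite, from 83.7, 83.6 and 81.5 CPM in DMSO to 89.4, 88.6 and 93.8 CPM in carfilzomib. The groups did not overlap there either, and the rise of 0.13 ± 0.037 passed (adjusted p = 0.0154). H-1299, the line with the highest SLBP level, overlapped and did not pass (-0.11, adjusted p = 0.123). The line-to-line difference was tested in the joint fit (F = 30.2, adjusted p = 8.16e-14).

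The calls of the small SLBP changes did not hold when single libraries were left out, though the values kept their direction. They ran from -0.24 to -0.16 in RKO, -0.18 to -0.14 in DLD-1, -0.18 to -0.11 in H-23 and 0.10 to 0.14 in PANC-1. The RKO call was lost without DMSO replicate 1 (-0.16) or 3 (-0.20) or carfilzomib replicate 1 (-0.18) or 3 (-0.16), and the DLD-1 call without DMSO replicate 2 (-0.15) or carfilzomib replicate 1 (-0.17) or 3 (-0.14). The H-23 call was lost without DMSO replicate 1 (-0.13) or 3 (-0.14) or carfilzomib replicate 1 (-0.11) or 2 (-0.12), and the PANC-1 call without DMSO replicate 3 (0.11) or carfilzomib replicate 3 (0.10). H-1299 gained a call without DMSO replicate 3 (-0.18). With library totals as the only scaling the RKO and DLD-1 falls did not pass (-0.15 and -0.12) and H-1299 passed (-0.22). After thinning to the lowest total the RKO (-0.19) and DLD-1 (-0.10) falls did not pass, and in the joint fit of all libraries H-1299 passed (-0.18) and H-23 (-0.15) and PANC-1 (0.12) did not. The falls in CAPAN-2, H-929 and RPMI were called in each of these fits.

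**Figure D2:**
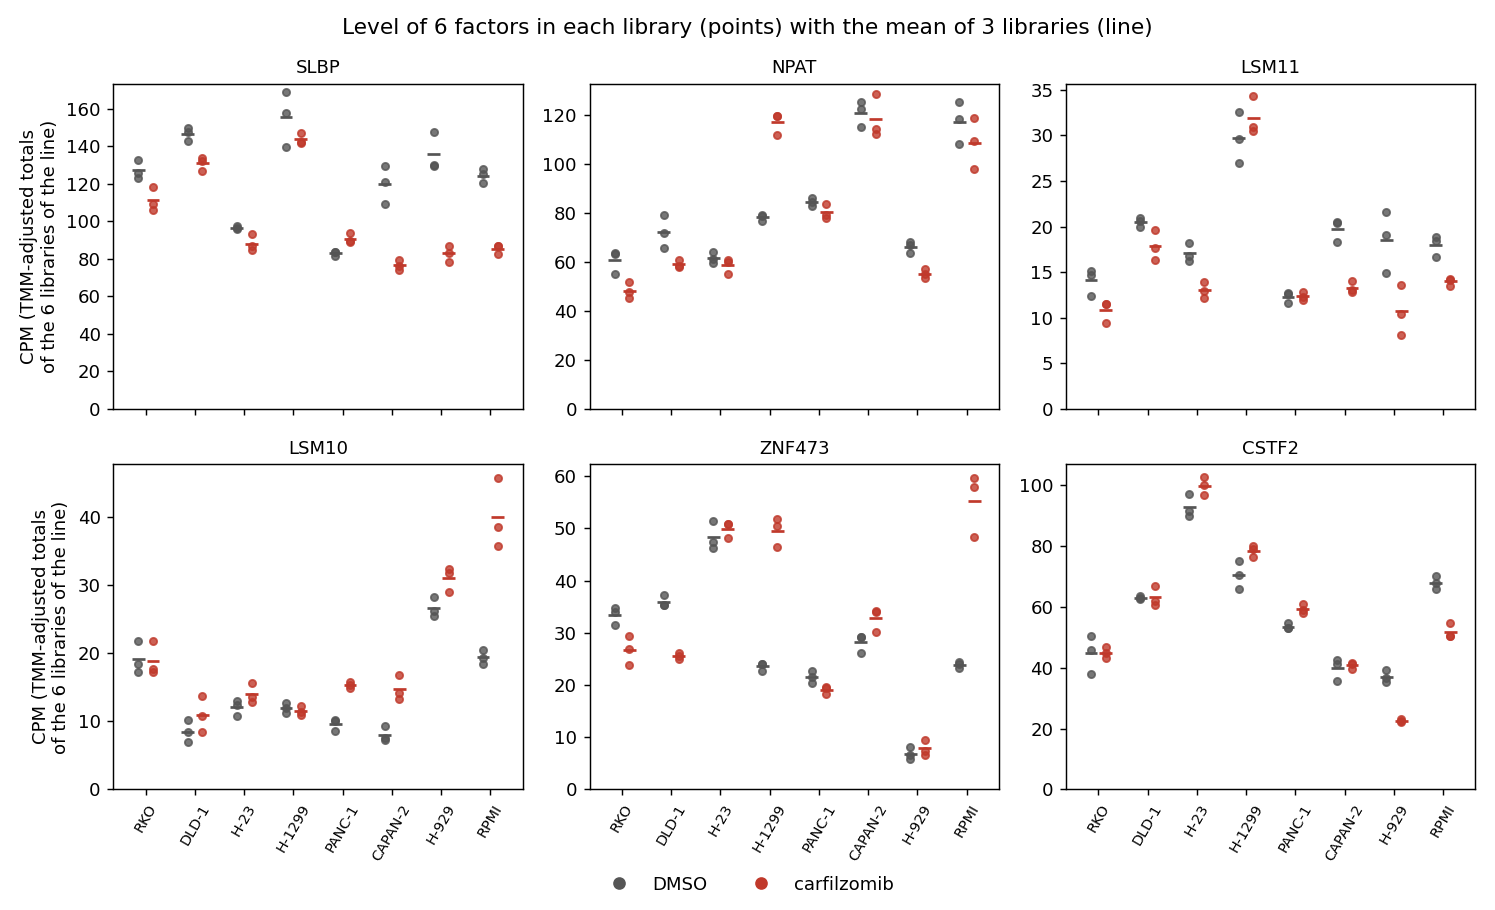
Level of SLBP, NPAT, LSM11, LSM10, ZNF473 and CSTF2 in each library (points, CPM over the TMM-adjusted totals of the line's 6 libraries, y axis from 0) by cell line (x axis), DMSO in grey and carfilzomib in red, with the mean of 3 libraries as a line. SLBP separates most in CAPAN-2, H-929 and RPMI, NPAT in H-1299, LSM10 in RPMI, ZNF473 in H-1299 and RPMI, and CSTF2 in H-929.

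The transcripts of the 2 Sm-like proteins of U7 differed in direction on average, and in CAPAN-2 and RPMI LSM10 was called higher and LSM11 lower in the same line. The proteins stand in the U7 ring in place of SmD1 and SmD2, and LSM11 also carries the arm that binds CASP8AP2. LSM10 (ENSG00000181817, chromosome 1, 36391238 to 36397892) was higher by the test in 3 lines and lower in 0. In RPMI it rose from 20.4, 18.5 and 19.4 CPM in DMSO to 45.8, 35.8 and 38.5 CPM in carfilzomib. No libraries overlapped, and the log2 fold change of 1.04 ± 0.095 (adjusted p = 4.16e-07) was one of the 4 calls of at least 2-fold. CAPAN-2 followed with 0.87 ± 0.12 (adjusted p = 3.44e-05) and PANC-1 with 0.68 ± 0.086 (adjusted p = 4.38e-05). In RKO, DLD-1, H-23 and H-1299 the groups overlapped and the values, from -0.06 to 0.37, did not pass. H-929 separated without overlap but did not pass either (0.22, adjusted p = 0.131), and it passed once rows averaging under 50 counts were dropped (0.33).

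LSM11 (ENSG00000155858, chromosome 5, 157743695 to 157760709) had falls called in 4 lines and rises in 0. In H-929 the DMSO libraries held 21.6, 19.03 and 14.9 CPM and the carfilzomib libraries 13.5, 10.4 and 8.10 CPM. The groups did not overlap, and the log2 fold change of -0.79 ± 0.21 (adjusted p = 0.00480) was the largest called fall among the single-row members. CAPAN-2 fell by 0.57 on the log2 scale (adjusted p = 4.22e-05), H-23 by 0.39 (adjusted p = 0.00235) and RPMI by 0.37 (adjusted p = 0.00403). RKO (-0.38, adjusted p = 0.144) and DLD-1 (-0.20, adjusted p = 0.0970) also separated without overlap but did not pass, and PANC-1 and H-1299 stood at 0.00 and 0.10. Both genes differed between lines, LSM10 with F = 10.04 (adjusted p = 5.99e-07) and LSM11 with F = 6.97 (adjusted p = 3.26e-05). None of the LSM10 and LSM11 calls was lost when 1 library was left out. Without replicate 2 of both groups the LSM11 calls in H-23 (-0.30), H-929 (-0.76) and RPMI (-0.33) were lost.

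Because both genes are counted in the same library, their count ratio needs no scaling. In RPMI the ratio of LSM10 to LSM11 counts was 1.08 ± 0.121 (SD, n = 3) in DMSO and 2.86 ± 0.303 in carfilzomib, a 2.64-fold difference. It was 2.73-fold higher in CAPAN-2, at 0.407 and 1.11, and 2.08-fold higher in H-929, at 1.47 and 3.04. PANC-1, H-23 and RKO were 1.60-fold, 1.54-fold and 1.29-fold higher without overlap, and in DLD-1 the groups, at 0.416 and 0.624, overlapped. H-1299 was lower, at 0.893-fold, from 0.391 to 0.419 in DMSO to 0.354 to 0.373 in carfilzomib. The 2 groups thus did not overlap in 7 lines and were higher after carfilzomib in 6 of them. For the levels of the single members, the groups did not overlap in 35 of the 72 member by line values. Ratios of other gene pairs were not taken. No test was run on the ratio, since the smallest p of a two-sided exact permutation test of 3 libraries against 3 is 0.10.

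**Figure D3:**
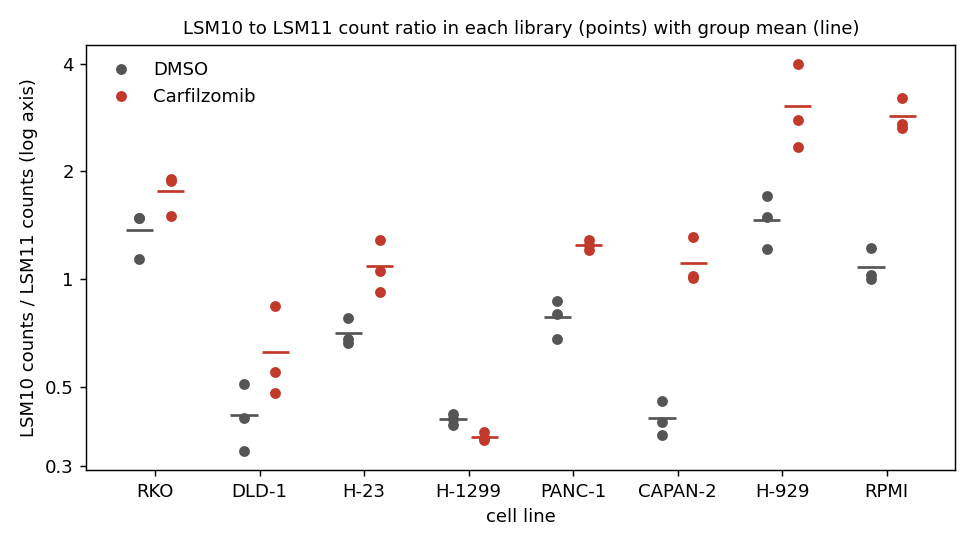
Ratio of LSM10 counts to LSM11 counts in each library (points, log y axis) by cell line (x axis), DMSO in grey and carfilzomib in red, with group means as lines. The ratio is higher after carfilzomib without overlap in 6 lines, overlaps in DLD-1 and is lower in H-1299.

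The proteins that complete the U7 ring are shared with the spliceosome. Of these 5 genes, SNRPB, SNRPD3, SNRPE, SNRPF and SNRPG, the joint fit called 4 lower and 1 higher, beside 23.9% and 19.8% of all genes. The median average log2 fold change of the 5 was -0.34. SNRPE fell by 0.41 ± 0.025 (adjusted p = 1.02e-18), SNRPB by 0.34 and SNRPG by 0.34 on average, and SNRPD3 rose by 0.10 ± 0.023 (adjusted p = 1.83e-04). SNRPD1 and SNRPD2, which encode the spliceosomal proteins that LSM10 and LSM11 replace, were both lower (-0.34 and -0.15). In RPMI, where LSM10 rose most, 5 of the 5 shared ring genes were called lower, beside 32.2% of all genes. In CAPAN-2 and PANC-1, where LSM10 was also called higher, 1 of the 5 was lower and 2 were higher in each line. The shares of all genes called lower and higher there were 26.7% and 25.7% in CAPAN-2 and 18.2% and 20.5% in PANC-1.

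ZNF473 (ENSG00000142528, chromosome 19, 50025714 to 50053414), the zinc finger protein that bridges U7 to SLBP, had the largest F for a difference between lines (F = 49.2, adjusted p = 2.38e-17). The test called rises in 3 lines and falls in 2. In RPMI it rose from 24.1, 24.4 and 23.2 CPM in DMSO to 48.2, 57.9 and 59.6 CPM in carfilzomib. The groups did not overlap, and the log2 fold change was 1.21 ± 0.083 (adjusted p = 2.58e-08). In H-1299 it rose from 22.7 to 24.1 CPM to 46.5 to 51.8 CPM (1.07 ± 0.064, adjusted p = 1.81e-08), and CAPAN-2 rose by 0.22 (adjusted p = 0.0174). In DLD-1 it fell, from 37.3, 35.2 and 35.3 CPM to 25.5, 26.04 and 24.95 CPM. That fall of 0.49 on the log2 scale (adjusted p = 1.66e-04) showed no overlap either. PANC-1 was called lower (-0.17, adjusted p = 0.0399), RKO separated without passing (-0.32, adjusted p = 0.0551; it passed in DESeq2, also at -0.32), and H-23 and H-929 overlapped. The average of 0.18 ± 0.033 rested on the 2 lines with the largest rises: it was 0.06 without H-1299 and 0.04 without RPMI and then was not called. The PANC-1 call was lost without DMSO replicate 1 (-0.14) or 3 (-0.17) or without carfilzomib replicate 1 (-0.15), 2 (-0.20) or 3 (-0.19) and in DESeq2 (-0.18), and the CAPAN-2 call without DMSO replicate 3 (0.17) or carfilzomib replicate 1 (0.20) or 2 (0.19) or after thinning (0.14). ZNF473 exons share 223 bases with VRK3 and 245 with AC010624.3 on the opposite strand in GENCODE release 29, and the use of strand in counting is not given in the sources used here.

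NPAT (ENSG00000149308, chromosome 11, 108157215 to 108222642), the coactivator at the histone loci, moved both ways. In H-1299 it rose from 79.1, 78.8 and 76.5 CPM in DMSO to 112, 120 and 119 CPM in carfilzomib. No libraries overlapped, with a log2 fold change of 0.58 ± 0.045 (adjusted p = 1.98e-07). In RKO it fell from 63.4, 63.3 and 54.9 CPM to 51.5, 47.6 and 44.99 CPM. The groups did not overlap (-0.33 ± 0.076, adjusted p = 0.0191), and DLD-1 fell by 0.29 on the log2 scale (adjusted p = 0.0109) and H-929 by 0.26 (adjusted p = 0.0270). H-23, PANC-1, CAPAN-2 and RPMI lay between -0.11 and -0.03 and did not pass. The lines differed (F = 20.1, adjusted p = 4.83e-11), and the average was -0.11 ± 0.023. The RKO call was lost without DMSO replicate 1 (-0.29) or 2 (-0.30) or carfilzomib replicate 2 (-0.32) or 3 (-0.28), and the H-929 call without DMSO replicate 1 (-0.26) or 3 (-0.27). The H-929 fall did not pass once rows averaging under 50 counts were dropped (-0.15), and RPMI passed in the joint fit (-0.18). ATM, the DNA damage kinase that starts beside NPAT and shares 143 exon bases with it on the opposite strand, did not share the H-1299 rise: it fell there by 0.16 (adjusted p = 0.0134).

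The locus partner CASP8AP2 could be described only by its split rows. The row named CASP8AP2 (ENSG00000288475) held between 2 and 182 counts per library with a median of 14, and its second row between 1 and 306 with a median of 81.5. It was called lower in H-23, where the DMSO libraries held 70, 24 and 32 counts and the carfilzomib libraries 14, 13 and 11. The log2 fold change of -1.25 ± 0.44 (adjusted p = 0.0410) came with overlapping scaled levels. The call was lost without DMSO replicate 1 (-0.72) or 2 (-1.35) or carfilzomib replicate 2 (-1.15) or 3 (-1.01). In PANC-1, 1 carfilzomib library held 182 counts and the other 2 held 17 and 5, against 9, 10 and 18 in DMSO. That value of 2.42 did not pass (adjusted p = 0.0592), and it became a call without carfilzomib replicate 2 (2.91) or 3 (2.97), but without carfilzomib replicate 1, the library of 182 counts, it was -0.32. RPMI, at -1.40 and not called, ran from -1.91 and called without DMSO replicate 3 to -0.14 without DMSO replicate 1. The average was 0.13 ± 0.29 (adjusted p = 0.923) for this row and -0.37 (adjusted p = 0.0802) for the second row, which was called lower in CAPAN-2 (-1.02, adjusted p = 0.0370, groups overlapping). The F of 3.01 for a difference between lines (adjusted p = 0.0185) was not called when the 2 rows were summed (F = 2.18, adjusted p = 0.0759), nor without replicate 1 (F = 1.39) or 2 (F = 2.26) of every group. The sum was called lower in H-23 (-0.54) and RPMI (-0.69).

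The other genes of histone transcription moved as unevenly. Of 11 locus and S phase entry factors, the joint fit called 7 lower and 3 higher, beside 23.9% and 19.8% of all genes. The median of the 11 was -0.07. E2F1, the S phase transcription factor, fell by 0.62 ± 0.030 (adjusted p = 2.64e-22), CDK2, the kinase of NPAT, by 0.32 and ATM by 0.18 on average. The 3 that rose, named after their values were seen, were HINFP (0.16), which activates histone H4 genes, CRAMP1 (0.16) and GON4L (0.12). In H-1299, where NPAT rose, 7 of the 11 were called higher and 4 lower, beside 29.8% and 31.3% of all genes.

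Of 10 cap binding and elongation factors, 4 were lower and 3 higher on average, beside 23.9% and 19.8% of all genes. The row of NELFE shares its identifier with another. NCBP1, the large subunit of the nuclear cap binding complex, fell by 0.33, NELFCD, a subunit of the negative elongation factor, by 0.26, and NELFB, another of its subunits, by 0.23. The other calls, named after their values were seen, were NCBP2 (-0.13), SUPT5H (0.19), SRRT (0.07) and CDK9 (0.05).

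CSTF2 (ENSG00000101811, X chromosome, 100820359 to 100840932), which binds RNA downstream of cleavage sites, fell in the myeloma lines. In H-929 the DMSO libraries held 36.5, 39.3 and 35.4 CPM and the carfilzomib libraries 22.4, 23.02 and 22.1 CPM. No libraries overlapped (-0.72 ± 0.11, adjusted p = 1.16e-04), and RPMI fell by 0.39 on the log2 scale (adjusted p = 4.40e-05), also without overlap. In H-1299 it was called higher, from 66.0, 75.0 and 70.3 CPM to 76.3, 79.0 and 79.9 CPM. The groups there were apart by little (0.16 ± 0.054, adjusted p = 0.0245), and the PANC-1 rise was of the same size (0.15, adjusted p = 0.00980). RKO, DLD-1, H-23 and CAPAN-2 lay between -0.01 and 0.11 and did not pass, though H-23 passed after thinning (0.18). The lines differed (F = 22.5, adjusted p = 8.36e-12), and the average of -0.13 ± 0.024 was -0.02 and not called without H-929. The H-1299 call was lost without DMSO replicate 1 (0.11) or 3 (0.15) or carfilzomib replicate 2 (0.14) or 3 (0.14), under scaling by library totals (0.05) and in the joint fit (0.09), and the PANC-1 call without DMSO replicate 3 (0.14), after thinning (0.14) and in the joint fit (0.14). CSTF2T, its paralog without introns, was not called on average (-0.05, adjusted p = 0.0779).

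SYMPK (ENSG00000125755, chromosome 19, 45815410 to 45863290), the scaffold of the cleavage complex, had the smallest changes of the single-row members, 0.25 at most. The test called 3 rises and 0 falls. In H-1299 it rose from 52.9, 61.8 and 57.5 CPM in DMSO to 66.7, 72.5 and 65.4 CPM. The groups did not overlap, with a log2 fold change of 0.25 ± 0.064 (adjusted p = 0.00410), but under scaling by library totals the value was 0.14 and not called. CAPAN-2 rose by 0.25 (adjusted p = 0.00259) and RPMI by 0.21 (adjusted p = 0.00743), the latter lost without DMSO replicate 3 (0.17) and in the joint fit (0.13). The average of 0.06 ± 0.022 (adjusted p = 0.0174) was not called without H-1299 (0.04), CAPAN-2 (0.03) or RPMI (0.05). It was also not called without replicate 2 (0.055) or 3 (0.053) of every group, nor with no filter on counts (0.050). The difference between lines passed (F = 4.42, adjusted p = 0.00167) but not without replicate 1 of every group (F = 2.35). SYMPK shares 41 exon bases with AC092301.1 on the opposite strand.

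Among 16 other cleavage and polyadenylation factors, 15 were tested. The joint fit called 12 lower and 1 higher, beside 23.9% and 19.8% of all genes, and the median of the 15 was -0.10. NUDT21, a subunit of cleavage factor I, fell by 0.33 ± 0.018 (adjusted p = 9.11e-21), CPSF3, the endonuclease that cuts both histone and polyadenylated pre-mRNAs, by 0.24, and CSTF1 by 0.23. The rise was that of RBBP6 (0.13), named after its value was seen. In H-929 10 of the 15 were called lower and 2 higher, beside 26.2% and 26.4% of all genes, and in H-1299 2 were lower and 9 higher, beside 31.3% and 29.8%.

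ERI1 (ENSG00000104626), the exonuclease of the decay step, was called in 1 line. In RPMI the DMSO libraries held 65, 99 and 136 counts, or 3.78, 3.51 and 3.69 CPM, and the carfilzomib libraries 86, 95 and 221 counts, or 4.74, 4.45 and 9.85 CPM. Carfilzomib replicate 3 stood far above the other 2. The log2 fold change of 0.80 ± 0.27 (adjusted p = 0.0190, edgeR) was 0.33 and not called without that library, and the call was also lost without DMSO replicate 2 (0.76). The average was 0.07 ± 0.14 (adjusted p = 0.887) for this row and -0.06 (adjusted p = 0.638) for the second. The test that lines differ did not pass for this row (F = 1.38, adjusted p = 0.293). It did for the second row (F = 2.70, adjusted p = 0.0313) and for the sum of both (F = 3.46, adjusted p = 0.00806). In RPMI the sum, which includes carfilzomib replicate 3, was called higher (0.58, adjusted p = 0.00830, edgeR). The second row alone separated there without overlap but did not pass (0.32, adjusted p = 0.136).

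Of 17 other factors of histone mRNA translation and decay, 16 were tested. On average 10 were lower and 4 higher, beside 23.9% and 19.8% of all genes, and the median of the 16 was -0.11. LSM4, part of the ring that binds the oligouridylated mRNA end, fell by 0.53 ± 0.023 (adjusted p = 4.81e-24). MIF4GD, the partner of SLBP in translation (also called SLIP1), fell by 0.47 and ATR, the replication stress kinase, by 0.35. The rises, named after their values were seen, were SMG1 (0.27), the terminal uridyltransferases TUT7 (0.25) and TUT4 (0.05), and the exonuclease XRN1 (0.10). Of 6 factors tied to the turnover of SLBP protein, the joint fit called 1 lower and 1 higher, beside 23.9% and 19.8% of all genes. Cyclin F was lower (CCNF, -0.51 ± 0.029, adjusted p = 5.53e-20) and FEM1C higher (0.26 ± 0.030, adjusted p = 2.22e-10). Protein levels were not measured.

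The transcripts that the machinery acts on were lower in all 8 lines, as a sum. The 61 histone rows summed to 9145 CPM ± 245 (SD, n = 3) in DMSO and 3263 CPM ± 217 in carfilzomib in H-1299, a log2 ratio of -1.49. CAPAN-2 followed with -1.18, RPMI with -0.93, DLD-1 with -0.82, and RKO and H-23 with -0.75 each. H-929 stood at -0.72 and PANC-1 at -0.14, from 3232 to 3317 CPM in DMSO to 2877 to 3101 CPM in carfilzomib. The groups did not overlap in any of the 8 lines. In the joint fit 46 of 60 tested histone genes were called lower and 0 higher, beside 23.9% and 19.8% of all genes. The median of the histone genes was -0.79, and H2AC4 (-1.31), H2BC7 (-1.24) and H2BC9 (-1.19) fell most. Single lines also had histone genes called higher. H-929 gave 11 higher and 33 lower of 57 tested, beside 26.4% and 26.2% of all genes. RPMI gave 7 and 39 of 53, beside 31.3% and 32.2%. H-1299 gave 2 and 50 of 54 (29.8% and 31.3%), and PANC-1 2 and 23 of 53 (20.5% and 18.2%). The labels name total RNA libraries and the design text mRNA sequencing, which matters for transcripts without a poly(A) tail, and the selection used was not given in the sources used here.

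Set beside the histone sum line by line, the factors did not share 1 order. H-1299 had the largest histone fall, its NPAT and ZNF473 rose, and its SLBP and LSM11 did not pass. H-929 had the largest SLBP, LSM11 and CSTF2 falls and a histone sum at -0.72, scaled within the line. PANC-1 had the smallest histone fall and the SLBP rise. Of 19 S phase genes, the joint fit called 18 lower and 0 higher, beside 23.9% and 19.8% of all genes. The median of the 19 was -0.54. In H-1299 12 were called lower and 4 higher (31.3% and 29.8% of all genes). RPMI gave 12 and 3 (32.2% and 31.3%), and PANC-1 6 and 1 (18.2% and 20.5%). MCM4, a subunit of the replicative helicase, fell by 0.71, MCM2 by 0.70 and GINS2 by 0.69, and RRM1 was the member not called (-0.01, adjusted p = 0.791). The S phase median was lowest in CAPAN-2 (-1.23), then H-929 (-0.61), RKO (-0.40), RPMI (-0.40), H-23 (-0.35), DLD-1 (-0.31), H-1299 (-0.25) and PANC-1 (-0.03). All 10 G2 and mitosis genes were called lower on average as well, beside 23.9% of all genes. The median of the 10 was -0.33, and TOP2A (-0.58), CDK1 (-0.52) and MKI67 (-0.50) fell most. In H-1299, however, 2 of the 10 were lower and 5 higher (31.3% and 29.8% of all genes). In CAPAN-2 3 were lower and 4 higher (26.7% and 25.7%). The part of a changed cell cycle in the changes of the 9 factors was not tested.

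**Figure D4:**
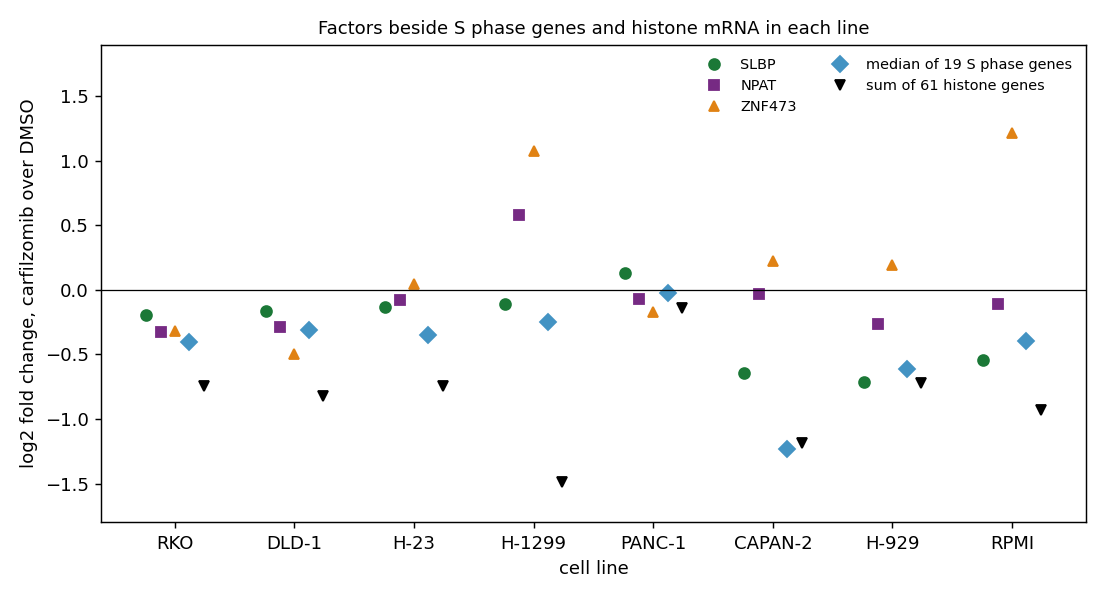
Log2 fold change of carfilzomib over DMSO (y axis) in each cell line (x axis) for SLBP, NPAT and ZNF473, for the median of 19 S phase genes and for the sum of 61 histone genes. The histone sum is below 0 in all 8 lines and lowest in H-1299 (-1.49), where NPAT (0.58) and ZNF473 (1.07) are above 0, and SLBP is above 0 only in PANC-1 (0.13).

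Across the 8 lines the log2 fold changes of SLBP in the joint fit correlated with those of LSM11 at Pearson r = 0.86 and of CSTF2 at 0.81. LSM11 correlated with CSTF2 at 0.79. These pairs were the highest among the members and were named after their values were seen. With the other single-row members SLBP correlated at 0.32 (NPAT), -0.12 (SYMPK), -0.18 (LSM10) and -0.33 (ZNF473). With the histone sum, scaled within the line, the values were 0.35 for SLBP, 0.19 for LSM10, -0.01 for LSM11 and -0.04 for CSTF2. NPAT and ZNF473 stood there at -0.60 each and SYMPK at -0.62. For H-929 the joint fit gave -0.87 for SLBP, -0.96 for LSM11 and -0.88 for CSTF2, lower than the fit of the line alone. SLBP correlated at 0.69 with the S phase median, which was taken from the fits of single lines, and LSM10 with LSM11 at -0.04. These are descriptions over 8 points, and the values of 1 line share their libraries and scaling. By the same measure over 16005 genes with a mean of at least 1 CPM, the genes most like SLBP were MCMBP (0.98), ANKH (0.98) and FEN1 (0.97). Those most like NPAT were ALKBH1 (0.99), RNF168 (0.98) and TAB2 (0.98), and those most like LSM11 were DONSON (0.98), a second row of PAK1IP1 that shares its identifier (0.97) and SNX8 (0.96). LSM10 was closest to ADD3, the pseudogene PTGES3P3 and LIMK1 (0.95 to 0.94), ZNF473 to LCA5, UPF3B and LINC00630 (0.98 each), CSTF2 to KCTD3 (1.00), PAFAH2 and SRRD (0.99 each), and SYMPK to DDA1 (0.96), with USP33 (0.95) also among its closest. Likeness was not tested.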

How the data were processed

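RNA of 48 libraries (8 cell lines, carfilzomib or DMSO, 3 each) was analysed from 1 matrix of raw read counts per gene deposited by the authors. The submitters' processing notes name bcl2fastq 2.19, FastQC, Trimmomatic, HISAT2, DESeq2 and hg38. The counting program, annotation and use of strand are not given in the sources used here. Each row names a gene, and 4803 of 33892 rows share an identifier with another. Each line was fitted on its 6 libraries with edgeR 4.0.16 in R 4.3.3 (TMM, filterByExpr, quasi-likelihood F test, Benjamini-Hochberg adjusted p under 0.05). A joint fit of 16 groups gave the average of 8 log2 fold changes and the F test that lines differ. Its error is the spread between libraries, not between lines. SE is the log2 fold change over the root of F. CPM are counts over TMM-adjusted totals, of the line where treatments are compared and of all 48 libraries where lines are.

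Same-numbered samples did not deviate together (correlations -0.08 to 0.06 over 24 pairs), so numbers were not used as pairs. Replicates differed by more than counting noise (lowest chi-square per degree of freedom 3.33). Intervals from counts cover counting error only. Positions and exon overlaps come from GENCODE release 29 (GRCh38), which lacks the CASP8AP2 identifier. The members and lists were chosen with earlier results of these data known. All 9 members are named, with every library for the line of the largest called fall and rise, with the 3 genes of highest correlation (1 of them is not reported here), and with up to 3 called genes of largest average per list. The fits were tested on simulated data. Alternatives covered scaling, filters, tool, a null fold of 1.5 and left-out libraries. Summing rows with 1 identifier and thinning to the lowest total were chosen after seeing the data.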

Additional observations from a re-analysis of the deposited data

Results flagged for a closer look

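The carfilzomib effect differed between the 8 lines in the joint edgeR fit for 8 of the 9 genes. The F value was 49.2 for ZNF473, with log2 fold changes from -0.49 in DLD-1 to 1.21 in RPMI. It was 30.2 for SLBP (-0.71 in H-929 to 0.13 in PANC-1), 22.5 for CSTF2 (-0.72 in H-929 to 0.16 in H-1299) and 20.1 for NPAT (-0.33 in RKO to 0.58 in H-1299). It was 10.04 for LSM10 (-0.06 in H-1299 to 1.04 in RPMI), 6.97 for LSM11 (-0.79 in H-929 to 0.10 in H-1299), 4.42 for SYMPK (-0.08 in H-23 to 0.25 in H-1299) and 3.01 for CASP8AP2 (-1.40 in RPMI to 2.42 in PANC-1, but -0.14 in RPMI and -0.32 in PANC-1 without 1 library each), whose reads are split over 2 rows. The CASP8AP2 difference did not pass without replicate 1 (F = 1.39) or 2 (F = 2.26) of every group, and the SYMPK difference without replicate 1 (F = 2.35).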

How the results depend on the processing

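Single-line calls numbered 18 lower and 14 higher. With a null fold of 1.5 they were 0 lower and 4 higher, and without replicate 1, 2 or 3 of every group they ran from 10 to 15 lower and from 11 to 12 higher. DESeq2 gave 18 and 14, and thinning 14 and 12. No direction of a called value turned under any setting run. With cell lines as units (limma on the 8 changes, 11622 genes), 0 members were lower and 0 higher against 45 and 57 of all genes, and 3 members had an unadjusted p under 0.05, so the averages hold against the spread between libraries and not between lines. Members with a higher average numbered 1 without H-1299 and 1 without RPMI. The replicate block gave 16 lower and 14 higher calls, losing SLBP in DLD-1 and ZNF473 in PANC-1, and 4 lower and 3 higher averages. CASP8AP2 no longer differed between lines with the replicate block (F = 1.72). Scaling mattered: the joint fit put the changes of H-929, RPMI and H-1299 lower than their own fits by a median of -0.16, -0.08 and -0.07, and library totals took the all-gene median in H-1299 from -0.02 to -0.12. Library totals turned the calls of all genes from 767 lower and 525 higher to 519 and 807 in RKO, from 2005 and 1812 to 1522 and 2311 in DLD-1, from 2929 and 3192 to 3401 and 2770 in H-23, and from 5171 and 4922 to 6252 and 3981 in H-1299. H-929 has the lowest totals, and its 4 calls were called after thinning. Counts of CASP8AP2 and ERI1 limit those genes most.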
